A study of Mus musculus with 9 samples.

Results

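Glo1, Btbd9, Glp1r, Pla2g7, Prl3a1, Coch, Trak1 and AI506816 are 8 of the 19938 genes measured in mouse embryonic fibroblasts that carried an intact, a mutated or no retinoblastoma gene. They were picked because their signal on the arrays of fibroblasts without Rb lay far from that of WT or ΔG fibroblasts. The values that picked them were the differences between the genotypes, so their own levels and differences are given as a description, with no test. Each gene is represented by 1 probe set, whichever was brightest on average across the arrays. Of the 8 genes, 4 were higher and 4 were lower in null.

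The fibroblasts were Rb +/+ (WT), Rb ∆G/∆G (ΔG) or Rb -/- (null), with 3 arrays for each genotype and 9 in all. Cells were plated sparsely in dishes of 15 cm. After 24 h their medium was changed for one with 0.1% fetal bovine serum, a step used to make fibroblasts leave the cell cycle. Whether the cultures of each genotype left it was not measured on these arrays. ΔG is known as an allele whose protein is altered at its general binding site for E2F transcription factors, and null fibroblasts lack the protein. All groups share the serum withdrawal, and there was no group in full serum. The series text calls the cultures of the 3 genotypes littermate pairs, but no label ties an array to a litter, an embryo, a sex or a strain, and the kind of null allele is not given in the sources used here. Values are log2 RMA signals, so that a difference of 1 is a 2-fold change and a fold is 2 raised to the difference.

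The retinoblastoma protein, pRB, holds E2F factors in check in resting cells, and its loss lets genes of DNA replication be transcribed. The 8 genes are not classical members of that programme. Glo1, Pla2g7 and Glp1r encode an enzyme of aldehyde detoxification, an enzyme that inactivates a lipid mediator and a hormone receptor. Btbd9, Trak1 and Coch encode an adaptor of ubiquitin ligases, an adaptor of mitochondrial transport and an extracellular matrix protein. Prl3a1 belongs to the placental prolactin family, and AI506816 is named after an expressed sequence and has no role stated here. Glo1 is also known for a stretch of chromosome 17 around it that is duplicated in some inbred mouse strains, a stretch that reaches Dnah8, Glp1r and part of Btbd9.

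The promoters of the Glo1 stretch are shown because the genes are next to each other on chromosome 17 and all had their highest signals on the null arrays. Sequences are those of RefSeq for GRCm38.p6, running 5′ to 3′ on the strand of the gene from 250 bases before to 50 bases after the annotated start, with each CG dinucleotide in capitals. The Glo1 window is chr17:30612610-30612909 on the minus strand, the Dnah8 window is chr17:30626686-30626985 on the plus strand, and the Glp1r window is chr17:30901617-30901916 on the plus strand.
Glo1: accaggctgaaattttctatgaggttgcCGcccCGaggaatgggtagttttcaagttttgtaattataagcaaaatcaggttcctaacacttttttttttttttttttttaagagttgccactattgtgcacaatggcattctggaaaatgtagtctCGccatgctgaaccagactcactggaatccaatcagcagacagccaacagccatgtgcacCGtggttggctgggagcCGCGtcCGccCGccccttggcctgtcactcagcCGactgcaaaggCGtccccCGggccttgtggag
Dnah8: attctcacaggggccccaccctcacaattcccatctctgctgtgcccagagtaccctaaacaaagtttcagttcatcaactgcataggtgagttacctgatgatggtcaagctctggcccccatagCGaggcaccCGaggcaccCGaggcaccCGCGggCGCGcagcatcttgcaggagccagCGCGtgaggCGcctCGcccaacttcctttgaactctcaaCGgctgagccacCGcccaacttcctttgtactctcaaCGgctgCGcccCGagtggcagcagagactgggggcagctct
Glp1r: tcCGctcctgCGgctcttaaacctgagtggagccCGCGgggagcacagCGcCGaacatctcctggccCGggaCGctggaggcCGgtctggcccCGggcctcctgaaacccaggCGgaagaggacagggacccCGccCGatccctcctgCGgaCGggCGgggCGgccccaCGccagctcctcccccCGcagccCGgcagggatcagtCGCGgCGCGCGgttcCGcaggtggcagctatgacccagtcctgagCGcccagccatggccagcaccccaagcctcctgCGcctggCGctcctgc
The Glo1 window holds 11 CG dinucleotides and the Dnah8 window 16. The Glp1r window is the richest of the 3, with 29 CG dinucleotides and a GC content of 73.7%, against 49.7% for Glo1. The median of the 32851 mouse promoter windows is 7. A window was found for 7 of the 8 genes, 10 windows in all because Trak1 has several starts. The E2F-type motif TTTNNCGC, read on both strands, was in 0 of these 10 windows, as against 5.17% of all windows. So few windows cannot set 0 apart from 5.17%. Counted by gene, 0 of the 7 had a window with the motif, as against 6 of 11 genes of DNA replication with a window. These counts describe letters in 300-base windows only.

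**Figure D1:**
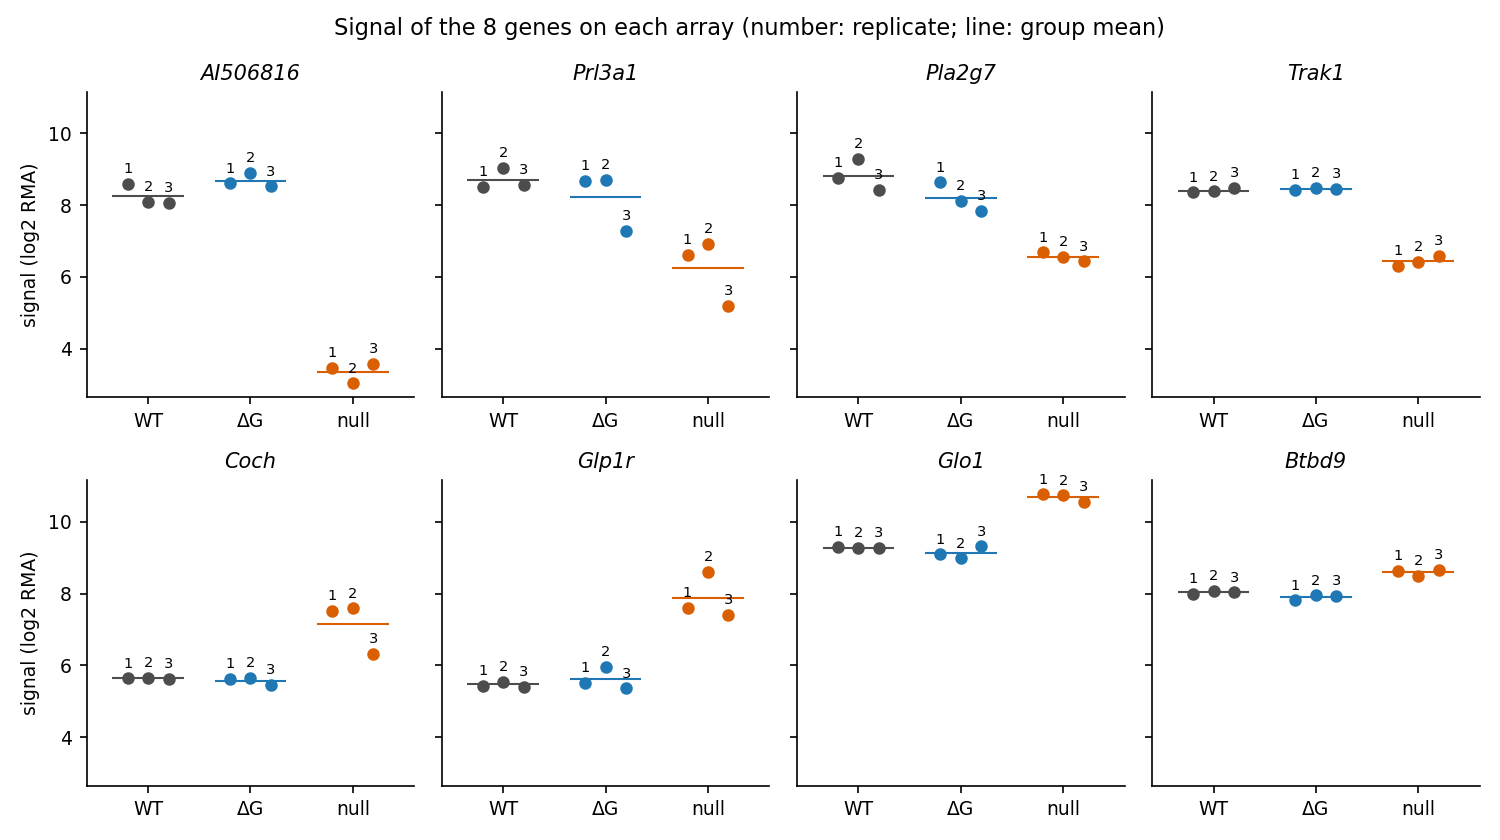
Signal of the 8 genes on each of the 9 arrays (y axis, log2 RMA) by genotype; points are arrays with their replicate number and lines are group means. The null arrays lie apart from all WT and ΔG arrays for every gene. Replicate 3 is the lowest null array for Prl3a1, Pla2g7, Coch, Glp1r and Glo1, by the widest margins for Prl3a1 and Coch.

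Glo1 (glyoxalase 1, probe set 10471675), which turns methylglyoxal and glutathione into a harmless thioester, varied little within each genotype. Its signal was 9.29, 9.27 and 9.26 on the WT arrays, 9.09, 8.98 and 9.31 on the ΔG arrays and 10.76, 10.73 and 10.56 on the null arrays. All 3 null arrays were high, and the null and the other arrays did not overlap. The means were 9.27 ± 0.014 (SD, n = 3) in WT, 9.13 ± 0.17 in ΔG and 10.68 ± 0.11 in null. Null was 2.65-fold above WT and 2.94-fold above ΔG, while ΔG minus WT was -0.15. The second Glo1 probe set, 10449644, gave 9.05 on each WT array, 8.91, 8.79 and 9.10 in ΔG, and 10.57, 10.51 and 10.36 in null, a difference of 1.43 between null and WT. Both probe sets thus showed the same order of arrays within ΔG and null. They may share target sequence and are not independent measurements. Numbers of probe sets on this array largely follow the genome: 19 of the 19 placed neighbours in number of probe set 10449644 were on chromosome 17, but all 19 of probe set 10471675 were on chromosome 2. The locus probed by 10471675 is therefore not settled by its number.

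Btbd9 (probe set 10449631) encodes a BTB-domain protein of the kind that brings substrates to CUL3 ubiquitin ligases. Its signal was 7.99, 8.07 and 8.03 in WT, 7.81, 7.95 and 7.94 in ΔG, and 8.63, 8.50 and 8.66 in null. The null arrays were again all high, with a gap of 0.43 to the highest WT array. The null mean, 8.60 ± 0.084 (SD, n = 3), was 1.48-fold above WT and 1.62-fold above ΔG. With a difference of 0.57 Btbd9 ranked 1319th in size of null minus WT, so it is not one of the largest changes on the array. The other 7 genes ranked 2nd to 95th.

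Glp1r (probe set 10443690) encodes the receptor for the gut hormone glucagon-like peptide 1, best known from pancreatic beta cells. Its signal was 5.44, 5.55 and 5.41 in WT, 5.52, 5.97 and 5.36 in ΔG, and 7.61, 8.61 and 7.41 in null. Replicate 2 was the highest array in each genotype, and the lowest null array stood 1.44 above the highest ΔG array. The null mean of 7.88 ± 0.64 (SD, n = 3) was 5.30-fold above the WT mean of 5.47 ± 0.074 and 4.78-fold above the ΔG mean of 5.62 ± 0.32. Leaving out 1 array at a time kept null minus WT between 2.04 and 2.64. It was the largest rise among the 8 genes, ranking 8th in size among all genes.

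Between Glo1 and Glp1r lies Dnah8, which encodes a heavy chain of sperm-tail dynein and was not picked by its value. Its signal was 4.79, 4.75 and 4.77 in WT, 4.65, 4.84 and 4.61 in ΔG, and 4.96, 5.0 and 5.09 in null. Every null array was above every other array, but the differences were small. All of these signals are under the lowest quartile of gene means, 5.26. No detection call was used, so whether the Dnah8 signal is above background is not known. Null minus WT was 0.24 ± 0.08 (SE) and narrowly missed the threshold (adjusted p = 0.0503, limma with Benjamini-Hochberg adjustment), and it passed in 5 of the 14 alternatives that kept the gene, at 0.029 to 0.049. ΔG minus null was -0.32 with an adjusted p of 0.027, a call that was lost without any 1 of 5 arrays, ΔG replicate 1 or 3 or any null replicate, with adjusted p between 0.059 and 0.11.

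Btbd9, Glo1, Dnah8 and Glp1r are 4 consecutive measured genes in RefSeq order, and all 4 had every null array above all WT and ΔG arrays. Over all measured genes 8.48% did so, and 10.3% had every null array below the others. Since 3 of the 4 were picked for high null values and Dnah8 had low signals of unknown detection, that count is a description. Size did not follow position: the differences between null and WT were 0.57, 1.41, 0.24 and 2.41 along the run. The genes just outside it did not share the rise, with null minus WT of -0.15 for Zfand3 next to Btbd9 and -0.06 for Umodl1 next to Glp1r. Copy number was not measured and the labels name no strain, so the part of a duplicated Glo1 segment in these differences was not tested.

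**Figure D2:**
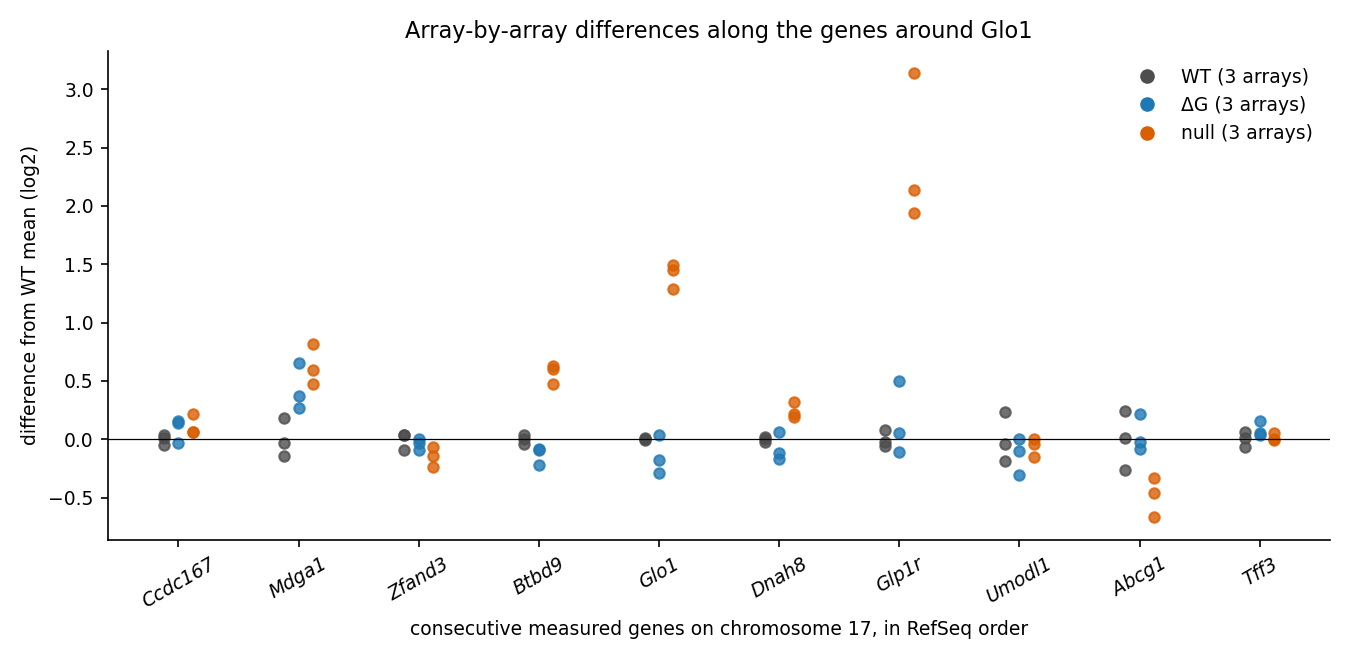
Differences from the WT mean (y axis, log2) on each array for 10 consecutive measured genes of chromosome 17, in RefSeq order. The orange null points are above all others at Btbd9, Glo1, Dnah8 and Glp1r and return to the level of the other arrays at Zfand3 and Umodl1, while Mdga1 and Abcg1 differ farther out.

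Other genes near the run were tested, since position alone chose them. Among the 21 measured genes within 10 genes of Btbd9, Glo1 or Glp1r, 4 (19.0%) passed the limma test in null minus WT, against 18.4% of all genes (8.38% higher and 10.1% lower). Mdga1, which encodes a cell-surface protein of neuronal contacts and lies just beyond Zfand3, was higher in null by 0.63 ± 0.12 (SE, adjusted p = 0.0047). It measured 6.84, 7.05 and 6.73 in WT, 7.24, 7.52 and 7.14 in ΔG, and 7.35, 7.70 and 7.46 in null, and ΔG minus WT was 0.43 (adjusted p = 0.17). Pde9a, a phosphodiesterase of cyclic GMP, rose by 0.92 ± 0.14 against WT (adjusted p = 0.00098) and ΔG minus null was -1.06 (adjusted p = 0.0012). Its signals were 5.87, 5.63 and 5.89 in WT, 5.52, 5.75 and 5.69 in ΔG, and 6.88, 6.36 and 6.90 in null, with no overlap. Abcg1, a sterol transporter on the Glp1r side, was lower by 0.49 in null than in WT, with an adjusted p of 0.025. That call was lost without WT replicate 1 or 2 or null replicate 1 or 3, with adjusted p from 0.064 to 0.098. The changed genes around the run thus went both ways.

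Pla2g7 (probe set 10445293) encodes the secreted phospholipase that inactivates platelet-activating factor, PAF. It lies on chromosome 17 as well, 272 measured genes beyond Glp1r. Its signal was 8.75, 9.29 and 8.43 in WT, 8.63, 8.11 and 7.83 in ΔG, and 6.68, 6.55 and 6.43 in null. The null arrays were all low and close together, and the ΔG arrays overlapped with WT but reached lower. The null mean of 6.55 ± 0.13 (SD, n = 3) was 4.82-fold below the WT mean of 8.82 ± 0.43 and 3.12-fold below the ΔG mean of 8.19 ± 0.41. ΔG minus WT was -0.63, the largest such difference in size among the 8 genes, and moved to -0.40 without WT replicate 2. Because Pla2g7 is well known from macrophages, their markers were set beside it. Of 16 macrophage and leukocyte markers 0 passed the test in any comparison (with unadjusted p under 0.05, 0 in null minus WT, 6 in ΔG minus null and 2 in ΔG minus WT). Of all genes 18.4%, 8.71% and 0.813% passed in these 3 comparisons. The mean signal of the markers per array ranged from 5.50 to 6.56 in WT, from 5.86 to 7.12 in ΔG and from 5.65 to 6.02 in null. The macrophage marker Adgre1 measured 5.85, 5.24 and 4.72 in WT, 6.70, 5.89 and 4.75 in ΔG, and 5.10, 4.77 and 4.91 in null. Its array order matched that of Pla2g7 in ΔG and differed from it in WT and in null, and the part of such cells in the Pla2g7 values was not tested. Fewer cells of a kind and less RNA per cell cannot be told apart in RNA from whole cultures.

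Around Pla2g7, 5 of 20 measured genes (25%) passed the test in null minus WT, against 18.4% of all genes. The largest difference there was that of Tnfrsf21, a death receptor of the tumour necrosis factor family. It measured 9.36, 9.35 and 9.09 in WT, 8.15, 8.07 and 8.54 in ΔG, and 7.91, 7.81 and 7.88 in null, falling by 1.40 ± 0.12 (SE) in null (adjusted p = 2.7e-05). It was also called in ΔG minus WT, where it fell by 1.01 (adjusted p = 0.0026). The ectoenzyme genes Enpp5 and Enpp4 are adjacent, yet in null minus WT Enpp5 fell by 0.69 (adjusted p = 0.0012) and Enpp4 rose by 0.86 (adjusted p = 0.00027). Of the 272 measured genes between Glp1r and Pla2g7, 44 (16.2%) were called, 19 of them higher and 25 lower.

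Prl3a1 (probe set 10404301), a placental hormone gene of the prolactin cluster on chromosome 13, had the widest spread within a genotype of the 8 genes. Its signal was 8.50, 9.03 and 8.57 in WT, 8.67, 8.70 and 7.29 in ΔG, and 6.62, 6.93 and 5.20 in null. Replicate 3 was low in both ΔG and null, and ΔG replicate 3 lay only 0.36 above the highest null array. The null mean of 6.25 ± 0.92 (SD, n = 3) was 5.46-fold below the WT mean of 8.70 ± 0.29 and 3.91-fold below the ΔG mean of 8.22 ± 0.81. Without null replicate 3 null minus WT was -1.92. ΔG minus WT, -0.48 over all arrays, was -0.02 without ΔG replicate 3, so this difference rested on that array.

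Of 26 prolactin family genes listed, 19 relatives of Prl3a1 were measured by a probe set with 1 gene symbol, and relatives without one were not seen. The measured relatives had low signals, with means over the arrays of 3.65 to 4.96, all under the lowest quartile of gene means, 5.26. No detection call was used, so a fall in these genes may not be measurable. Of the 19 relatives 0 (against 18.4% of all genes) passed the test in null minus WT, with 2 at an unadjusted p under 0.05. Their differences ran from -0.20 to 0.12 with a median of 0.00 against -0.01 for all genes. The 2 of lowest p were Prl6a1, at -0.20 with an adjusted p of 0.079, and Prl8a8, at -0.18 with 0.083. With each array centred on its median they passed, at adjusted p of 0.046 and 0.044. Of 15 measured trophoblast and placenta markers 0 were called in null minus WT (1 at an unadjusted p under 0.05), and their mean signal per array lay between 5.03 and 5.22 on all 9 arrays. Among the 20 neighbours of Prl3a1 on chromosome 13, 1 (5%, against 18.4% of all genes) was called in null minus WT. It was Aldh5a1, a mitochondrial dehydrogenase gene named after its value was seen, at 0.34 with an adjusted p of 0.021.

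Coch (cochlin, probe set 10395659) encodes a secreted matrix protein with an LCCL domain, abundant in the inner ear. Its signal was 5.64, 5.66 and 5.62 in WT, 5.63, 5.66 and 5.46 in ΔG, and 7.52, 7.59 and 6.33 in null. WT and ΔG were nearly flat, and within null replicate 3 stood well below the other arrays but still 0.67 above the highest WT array. The null mean of 7.15 ± 0.71 (SD, n = 3) was 2.84-fold above the WT mean of 5.64 ± 0.019 and 2.96-fold above the ΔG mean of 5.58 ± 0.11. Null minus WT was 1.51, and it was 1.92 without null replicate 3 and 1.29 without null replicate 2.

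Around Coch on chromosome 12, 5 of 20 measured genes (25%) were called in null minus WT, against 18.4% of all genes. Stxbp6, a gene of vesicle fusion, measured 7.06, 6.57 and 6.66 in WT, 7.06, 7.13 and 7.60 in ΔG, and 7.90, 8.21 and 7.73 in null, a rise of 1.18 ± 0.17 (SE, adjusted p = 0.00077). G2e3, a ubiquitin ligase gene close to Coch, rose by 0.76 (adjusted p = 0.0004) and Akap6, an anchor of protein kinase A, fell by 0.68 (adjusted p = 0.00089). Both directions were present, as around the Glo1 run and Pla2g7. In ΔG minus null, the calls of Stxbp6, G2e3, Akap6, Enpp5 and Enpp4 were each lost without ΔG replicate 1 or 2, with adjusted p between 0.0502 and 0.12. All of these but Enpp4 also lost it without null replicate 1, and Stxbp6 without null replicate 2. Chromosome 12 as a whole had the highest share of called genes of the 19 autosomes, 28.0% in null minus WT, with 71 higher and 111 lower of 651.

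Trak1 (probe set 10590343) encodes an adaptor that couples mitochondria to kinesin motors. Its signal was 8.35, 8.38 and 8.47 in WT, 8.42, 8.47 and 8.46 in ΔG, and 6.30, 6.42 and 6.58 in null. The 6 WT and ΔG arrays spanned only 0.12 and all null arrays lay at least 1.78 below them. The null mean, 6.43 ± 0.14 (SD, n = 3), was 3.92-fold below WT and 4.05-fold below ΔG, with ΔG minus WT at 0.05. Leaving out 1 array at a time kept null minus WT between -2.04 and -1.90. Around it on chromosome 9, 1 of 20 measured genes (5%, against 18.4% of all genes) was called in null minus WT. It was the adjacent gene Cck, which encodes the peptide cholecystokinin and is named here after its value was seen, at -0.42 with an adjusted p of 0.039.

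AI506816 (probe set 10351504) showed the largest difference of the 8 genes and the second largest of all genes after Xist. Its signal was 8.58, 8.09 and 8.06 in WT, 8.60, 8.89 and 8.52 in ΔG, and 3.47, 3.04 and 3.57 in null. All null arrays were low, at least 4.49 below the WT arrays, while ΔG overlapped with WT and reached higher. The null mean of 3.36 ± 0.29 (SD, n = 3) was 29.5-fold below the WT mean of 8.24 ± 0.29 and 39.6-fold below the ΔG mean of 8.67 ± 0.19. No detection call was used, so whether the null signal is above background is not known. The null mean is under the tenth percentile of gene means, 4.50, and if it is background the folds are lower limits. RefSeq places the gene on chromosome 5, whereas all 19 placed neighbours of its probe set in number were on chromosome 1. Its 20 neighbours in RefSeq order held 1 called gene in null minus WT (5%, against 18.4% of all genes). The neighbours by probe set number, a choice made after seeing the data, held 5 of 20 (25%), 1 of them higher and 4 lower.

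**Figure D3:**
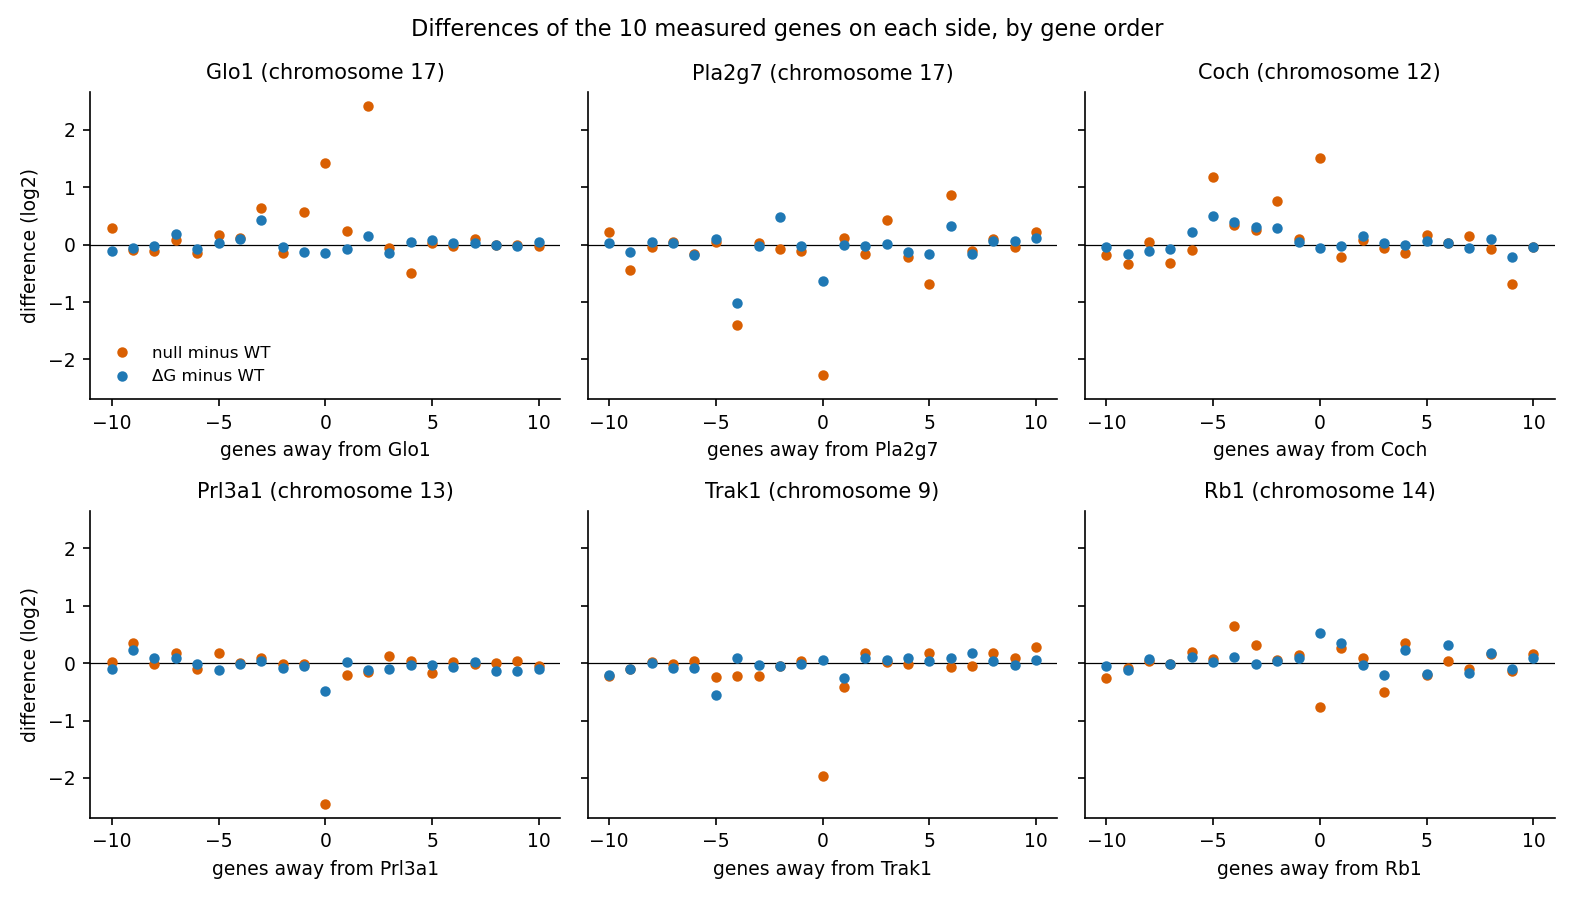
Null minus WT (orange) and ΔG minus WT (blue) of the 10 measured genes on each side of Glo1, Pla2g7, Coch, Prl3a1, Trak1 and Rb1 (x axis, place in RefSeq gene order; y axis, log2 difference). Prl3a1 and Trak1 stand alone among their neighbours, whereas larger differences of both signs surround Glo1, Pla2g7 and Coch.

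Over all neighbourhoods together, 17 of 121 genes (14%) were called in null minus WT, 8 higher and 9 lower, and leaving out 1 array at a time gave 11 to 20. The median difference was -0.01, as over all genes. In ΔG minus null 12 of 121 (9.92%) were called, against 8.71% of all genes (4.44% higher and 4.27% lower), but only 2 without ΔG replicate 1. In ΔG minus WT 1 gene was called, Tnfrsf21, against 0.813% of all genes (0.602% higher and 0.211% lower). The pooled share in null minus WT was thus below the 18.4% of all genes. Single neighbourhoods of the 8 genes ran from 5% to 25%, with Pla2g7 and Coch at 25%. AI506816 entered with its chromosome 5 neighbours, although the number of its probe set lies among those of chromosome 1. Rb1 itself is on chromosome 14, which holds none of the 8 genes, and 4 of its own 20 neighbours (20%) were called in null minus WT. Of these Itm2b, a gene of a membrane protein, fell by 0.51 (adjusted p = 0.019), a call lost without WT replicate 1 or 2 or null replicate 1 or 3, at adjusted p from 0.059 to 0.078. By chromosome, the share of genes called was 19.5% on chromosome 17, 20% on chromosomes 9 and 14, 21.5% on chromosome 13 and 16.9% on chromosome 5, within an autosomal range of 13.7% to 28.0%.

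**Figure D4:**
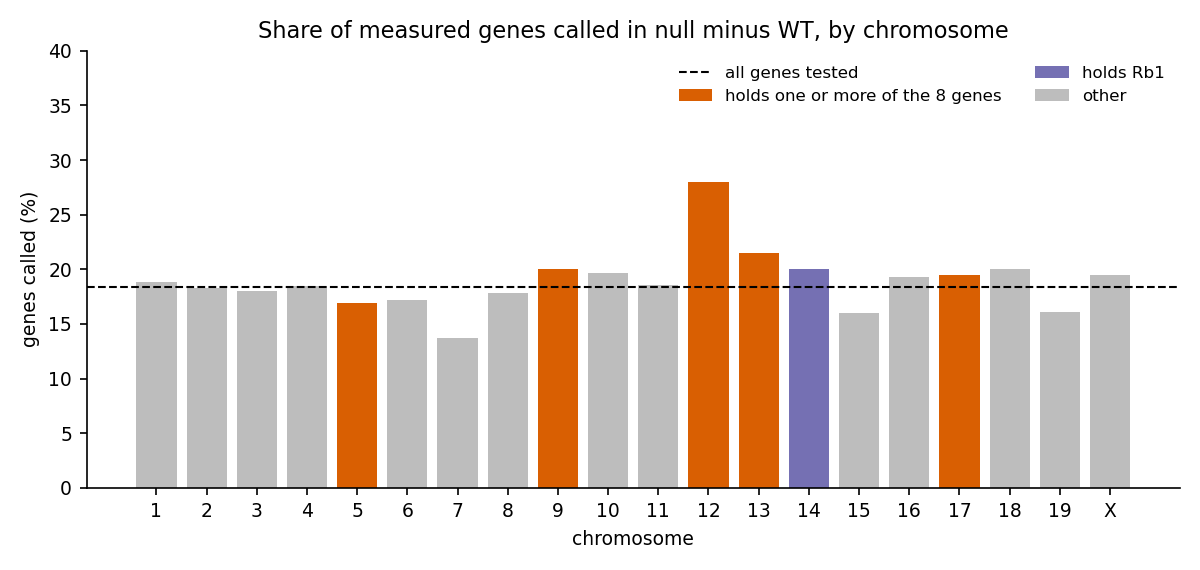
Percent of measured genes called in null minus WT on each chromosome (bars, from 0), with chromosomes that hold the 8 genes in orange, that of Rb1 in violet and the share over all genes as a dashed line at 18.4%. Chromosome 12, which holds Coch, is highest at 28.0%, and chromosome 17, with 4 of the genes, is at 19.5%.

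Set beside each other, the null arrays did not overlap with WT for 8 of the 8 genes, as for 34.7% of all genes, nor with ΔG for 8 of 8, as for 27% of all genes. The genes were chosen on these differences, which share the null or the WT arrays, so nothing is read from these counts. ΔG and WT did not overlap for 1 of the 8 genes, Btbd9, whose ΔG arrays were all slightly lower, against 16.5% of all genes. There is no cutoff that separates the 8 genes from the others: Dpt, at -3.79, and Serpina3n, at -3.25, had larger differences between null and WT than Prl3a1 and were not among them. Pgm5 at -2.06 and Adh1 at -2.01 also ranked above Trak1, and Olfr1314 at -1.95 ranked below it.

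The labels were checked on Rb1, whose signal was 9.08 ± 0.13 (SD, n = 3) in WT, 9.61 ± 0.13 in ΔG and 8.31 ± 0.23 in null. The null arrays were the lowest, by 1.70-fold against WT. Which exons are deleted is not given in the sources used here, so the remaining signal cannot be read as protein or intact transcript. The sex-linked genes split the arrays differently from the genotypes. Xist, the X inactivation transcript of female cells, was between 11.42 and 11.98 on WT replicate 3 and all null arrays and between 4.24 and 4.45 on the others, and the Y-linked gene Eif2s3y was at 3.52 to 3.94 and 9.13 to 9.61 in the opposite way. Null and ΔG thus differ in these genes on every array, and in ΔG minus null the genotype and the Xist state cannot be told apart. WT replicate 3 offers a value with the same Xist state as null. The null mean minus that array was -4.70 for AI506816, -2.32 for Prl3a1, -1.88 for Pla2g7 and -2.04 for Trak1. It was 1.53 for Coch, 2.47 for Glp1r, 1.42 for Glo1 and 0.56 for Btbd9. These values rest on a single WT array and on genes chosen for their null signal, and the part of the Xist state in the differences was not tested.

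Fibroblast identity was checked on 14 markers, whose mean signal per array was 11.47 to 11.81 in WT, 11.41 to 11.60 in ΔG and 10.97 to 11.09 in null. Of the 14 markers 11 (78.6%) were called lower in null minus WT and 0 higher, against 10.1% and 8.38% of all genes. Among the 11 was Dcn, a small proteoglycan of the matrix, lower by 1.38 (adjusted p = 6.6e-05). In ΔG minus null 6 of the 14 (42.9%) were called, all higher in ΔG, against 4.44% of all genes called higher there. Of other cells' markers 1 of 11 epithelial genes was higher in null, the keratin gene Krt19 by 1.48 (adjusted p = 0.0013). Of 12 neural markers 1 was higher, Syt1 by 0.76 (adjusted p = 0.0024), and of 10 endothelial markers 1 was lower, Emcn by 0.81 (adjusted p = 0.049). Each of these shares is near that of all genes. Emcn measured 6.38, 6.09 and 5.15 in WT and 5.16, 5.19 and 4.82 in null, so null overlapped with WT replicate 3. In null minus WT all 12 genes of a DNA replication list were called higher, against 8.38% of all genes. In ΔG minus WT 11 of the 12 were called higher, against 0.602% of all genes. The other, Rrm2, rose there by 0.65 with an adjusted p of 0.071. The part of any of these shifts in the 8 genes' values was not tested.

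Genes related to 7 of the 8 by function, family or shared domain were put in 7 lists, and AI506816 had none. Of the 135 genes in these lists 26 (19.3%) were called in null minus WT, 11 higher and 15 lower. Leaving out 1 array at a time gave 15 to 29. The share of 19.3% is near the 18.4% of all genes. By list it was 27.8% for Glo1, 13.3% for Btbd9, 17.4% for Glp1r and 44.4% for Coch. It was 25% for both Pla2g7 and Trak1 and 0% for Prl3a1. In ΔG minus null 9 (6.67%) were called, against 8.71% of all genes. Leaving out 1 array gave 3 to 19, the fewest without ΔG replicate 1 and the most without ΔG replicate 3. In ΔG minus WT 0 passed the limma test, against 0.813% of all genes, with 12 at an unadjusted p under 0.05.

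**Figure D5:**
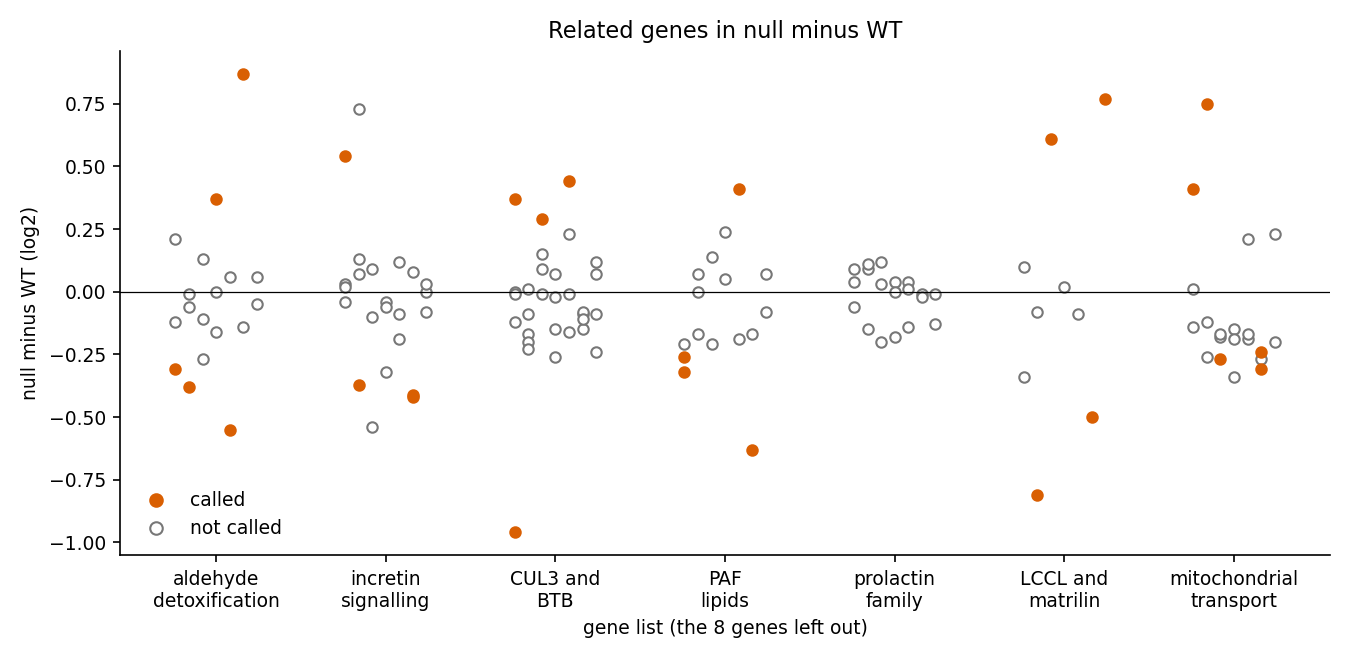
Null minus WT (y axis, log2) of each measured gene in 7 lists of genes related by function, family or shared domain, with the 8 genes themselves left out. Filled points passed the limma test and open points did not. Called genes lie on both sides of 0 in 6 lists, and the prolactin family has no called gene.

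For Glo1, the list held enzymes of aldehyde detoxification and glutathione supply, and 5 of 18 were called in null minus WT, 2 higher and 3 lower, with a median of -0.06. Hagh, which encodes glyoxalase 2, the enzyme of the step after Glo1, fell by 0.31 (adjusted p = 0.042). The glutathione reductase gene Gsr measured 8.57, 8.52 and 9.28 in WT, 8.90, 9.04 and 9.77 in ΔG, and 9.73, 9.66 and 9.60 in null. It rose by 0.87 in null (adjusted p = 0.020), a call lost without WT replicate 1 or 2 or null replicate 1 or 2, at adjusted p from 0.053 to 0.081. Gclc, a subunit of the first enzyme of glutathione synthesis, rose by 0.37 (adjusted p = 0.0069). The aldehyde dehydrogenase gene Aldh1a1 fell by 0.55 (adjusted p = 0.011), and Ddost, a subunit of the oligosaccharyl transferase also known as a receptor of glycated proteins, fell by 0.38 (adjusted p = 0.0032).

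For Btbd9, 4 of 30 genes of BTB adaptors and CUL3 ligases were called in null minus WT, 3 higher and 1 lower, with a median of -0.05. Klhl13, an adaptor of mitosis, measured 8.44, 8.55 and 8.84 in WT, 8.47, 8.43 and 8.23 in ΔG, and 7.69, 7.61 and 7.65 in null. It fell by 0.96 ± 0.10 (SE, adjusted p = 0.00013), and ΔG minus null was 0.73 (adjusted p = 0.002). Kbtbd8 rose by 0.44 (adjusted p = 0.0049). Btbd6 at 0.37 and Kbtbd4 at 0.29 also passed, with adjusted p of 0.025 and 0.043, but Btbd6 lost its call without any 1 of 4 arrays (WT replicate 3 or any null replicate), and Kbtbd4 without any 1 of 6 arrays.

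For Glp1r, 4 of 23 genes of incretin hormones, their receptors and cyclic AMP signalling were called in null minus WT, 1 higher and 3 lower, with a median of -0.04. The beta-arrestin gene Arrb2 rose by 0.54 (adjusted p = 0.0023). Adcyap1r1, a receptor related to Glp1r, fell by 0.42 (adjusted p = 0.0039), and the adenylyl cyclase gene Adcy5 fell by 0.37 (adjusted p = 0.011), or 0.33 without null replicate 1 with an adjusted p of 0.053. Rapgef3, a cyclic AMP sensor, was at -0.41 with an adjusted p of 0.043 that rose to at most 0.15 on leaving out 1 array and was lost for 5 of them.

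For Pla2g7, 4 of 16 genes of PAF and its lipids were called in null minus WT, 1 higher and 3 lower, with a median of -0.13. Lpcat1, an acyltransferase that can make PAF, rose by 0.41 (adjusted p = 0.0011), and the lysosomal phospholipase gene Pla2g15 fell by 0.63 (adjusted p = 0.0046). Pla2g6, another phospholipase, fell by 0.32 (adjusted p = 0.022), and Agps, of ether lipid synthesis, by 0.26 (adjusted p = 0.036). The Pla2g6 call was lost without any 1 of 3 arrays and that of Agps without any 1 of 6.

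For Coch, 4 of 9 genes with LCCL domains or of the matrilin kind were called in null minus WT, 2 higher and 2 lower, with a median of -0.08. Crispld2, a secreted LCCL protein, measured 7.79, 8.17 and 7.83 in WT, 8.33, 7.79 and 7.84 in ΔG, and 7.27, 7.21 and 6.86 in null. It fell by 0.81 ± 0.16 (SE, adjusted p = 0.0047), against the direction of Coch. Matn3, a cartilage matrix protein, rose by 0.77 (adjusted p = 0.0044) and Matn2 fell by 0.50 (adjusted p = 0.018, but 0.071 without WT replicate 2). Dcbld1 rose by 0.61 (adjusted p = 0.014, but 0.052 without null replicate 2).

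For Trak1, 5 of 20 genes of mitochondrial transport were called in null minus WT, 2 higher and 3 lower, with a median of -0.18. Myo19, the myosin of mitochondria, measured 8.04, 8.08 and 8.18 in WT, 8.34, 8.56 and 8.54 in ΔG, and 8.81, 9.06 and 8.68 in null, a rise of 0.75 ± 0.10 (SE, adjusted p = 0.00051). Hap1, a binding partner of huntingtin related to Trak1, rose by 0.41 (adjusted p = 0.0029). The paralog Trak2 fell by 0.31 (adjusted p = 0.022), far less than Trak1, and lost its call without WT replicate 2, null replicate 1 or null replicate 3. Armcx3, a protein of the outer mitochondrial membrane, was at -0.27 with an adjusted p of 0.026 and lost its call in 5 alternatives.

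A list of 17 genes known to vary between inbred mouse strains, by copy number, deletion or expression, was measured because the labels give no strain. In null minus WT 5 (29.4%) were called, 3 higher and 2 lower, against 18.4% of all genes. The median of the list was 0.09. Alad, of heme synthesis, measured 8.44, 8.24 and 8.16 in WT, 8.97, 8.92 and 8.81 in ΔG, and 9.26, 9.44 and 9.40 in null, a rise of 1.09 (adjusted p = 2.2e-05). Entpd4, a nucleotidase of the Golgi, measured 9.81, 10.24 and 9.95 in WT, 9.10, 9.22 and 9.16 in ΔG, and 9.04, 9.03 and 9.23 in null. Both were also called in ΔG minus WT, at 0.62 (adjusted p = 0.0089) and -0.84 (adjusted p = 0.0046). They were the only 2 of the 17 called there (11.8%), against 0.813% of all genes. Casp4, with low signals of 4.67 to 5.3, rose by 0.38 in null (adjusted p = 0.007). Mx2 fell by 0.44 (adjusted p = 0.024, lost without any 1 of 4 arrays). The remaining called gene was H2-Eb1 on chromosome 17, at 0.39 in null minus WT (adjusted p = 0.031). Also on chromosome 17, H2-Ea, H2-Q10 and H2-T10 were not called there, nor was Dnah8, which the list includes. With 17 genes and no strain label, the list describes these arrays and assigns no strain, and the part of strain in the 8 genes' differences was not tested.

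Likeness of pattern was measured as the root mean square difference of centred log2 values over the 9 arrays. The gene most like Glo1 was Thyn1, at 0.12, and the one most like Btbd9 was Esrrg, at 0.07. For Glp1r they were Dhrs9, at 0.46, and Coch and H60b, at 0.48, and for Coch Krt19, at 0.22. Prl3a1 was closest to Cemip and Pla2g7, both at 0.50, and Pla2g7 to Lrrc15, at 0.26. For Trak1 they were Slc22a23 and Adamts9, both at 0.22. AI506816 had no close match, the nearest being Serpina3n, at 0.80, which measured 10.53, 10.17 and 10.12 in WT, 10.45, 10.85 and 10.73 in ΔG, and 6.82, 7.04 and 7.21 in null. Small values favour genes with small differences, and all such matches share the same 9 arrays.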

How the data were processed

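RNA of 9 fibroblast cultures was hybridised to Affymetrix Mouse Gene 1.0 ST arrays, per the labels' protocols. The authors deposited log2 values from RMA, run in BRB-ArrayTools per the series text, and the submitters' processing notes list RMA and affy. RMA corrects background, equalises the arrays' distributions and summarises probes, which tends to compress differences. Software versions and the array annotation's build: not given in the sources used here. No further scaling was applied; array medians were 6.329 to 6.401.

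Of 35512 probe sets, 21789 had 1 gene symbol, and only these were named. GEO's platform annotation and RefSeq (GRCm38.p6) served for names and gene order. The probe set with the highest mean stood for each of 19938 genes.

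A single model with one mean for each genotype was fitted to the 9 arrays in limma 3.58.1 (R 4.3.3), leaving 6 residual degrees of freedom, and p-values were adjusted by Benjamini-Hochberg over all genes, with a threshold of 0.05. "Called" or "passed" means below that threshold. On simulated data the fit called 68.7%, 95.5% and 100% of genes changed by log2 0.5, 1 and 2 in null minus WT (67, 67 and 66 genes among 19938), with 10 false calls. The simulated noise was independent between genes, and far fewer genes were changed than the 3678 called in the real comparison. The shares therefore need not hold for the real arrays. The labels do not say that cultures came from separate embryos, so p-values reflect only how these samples vary, and part of that may be technical. Precision is set by having 3 arrays for each genotype.

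The 8 genes and all lists were chosen with earlier results of these data known. Named besides the 8 were Rb1 and sex-linked genes, Dnah8, neighbours called in null minus WT or ΔG minus null with a difference of at least 0.5 there, up to 4 called genes of lowest p in each list (or the 2 of lowest p where none was called), and the 3 genes of closest pattern, of which the nearest are given. Zfand3, Umodl1, Aldh5a1, Cck, Hagh, Dpt, Serpina3n, Pgm5, Adh1, Olfr1314, Adgre1, H2-Eb1, H2-Ea, H2-Q10 and H2-T10 were added after their values were seen. The alternatives tried were repeated quantile normalisation, median centring, leaving out the dimmest genes (lowest 25% by mean), averaging probe sets, a mean-variance trend, the replicate number as a block, and leaving out each array.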

Additional observations from a re-analysis of the deposited data

How the results depend on the processing

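All 360 differences of the 8 genes under the 15 alternatives stayed within 1 SD between replicates of the value given. For the 9 alternatives that left out 1 array this was fixed in advance, since dropping 1 of 3 arrays cannot move a group mean farther. Without ΔG replicate 3, ΔG minus WT of Prl3a1 moved from -0.48 to -0.02. ΔG minus WT changed sign for Coch (0.01 without ΔG replicate 3) and Glp1r (-0.03 without ΔG replicate 2). On leaving out 1 array the number of genes called ran from 2546 to 3895 in null minus WT, from 762 to 2408 in ΔG minus null and from 62 to 252 in ΔG minus WT. Among position neighbours it ran from 11 to 20 in null minus WT and from 2 to 14 in ΔG minus null, and among the 7 lists from 15 to 29 and from 3 to 19. Every other alternative kept each of these counts within 1.5 times. Of the 1830 values of named neighbours and list genes under the alternatives, 1705 kept their side of the threshold, 100 lost a call and 25 gained one, and 0 called values changed sign; the cause was not tested. Samples that share a replicate number correlated between -0.08 and 0.27 in their deviations from the group means (9 pairs), and the others between -0.24 and 0.14 (18 pairs). These values do not settle whether the numbers pair cultures, and the main fit used no block. With the replicate number as a block, 3777, 1977 and 211 genes were called in null minus WT, ΔG minus null and ΔG minus WT. Under that block Mdga1 (0.43, adjusted p = 0.032) and Matn3 (0.67, adjusted p = 0.042) gained a call in ΔG minus WT and Itm2b and Pla2g6 in ΔG minus null (both adjusted p = 0.039), while Kbtbd4 lost its call in null minus WT (adjusted p = 0.065).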
